A study of Mus musculus with 11 samples.

Results

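The response of GIV-depleted macrophages to bacterial lipopolysaccharide (LPS) was measured in 6 RNA libraries of RAW cells, a mouse cell line with macrophage properties. All 6 came from cells with a short hairpin RNA against GIV (also called Girdin, gene Ccdc88a), labelled shGIV. In 3 of them LPS was absent (0 h), and the other 3 had 5 h of LPS, at 100 ng/ml by the stated protocol. Replicates 1 to 3 are the set numbers of the labels. The series lists 11 samples, of which 10 have a column. The comparison line carries a control hairpin, labelled shC, and has 3 libraries without LPS and 1 with 5 h of LPS (replicate 2). The other library of shC cells with LPS, replicate 3, was not analysed here. The labels name neither the hairpin sequence nor whether the depleted cells are 1 clone or a pool. They also do not say that replicates were separate cultures, so p-values measure only the spread between these libraries. Genes were included when log2(TPM + 1) reached 1 in at least 2 of the 6 libraries, which kept 13257 of the 52143 genes in the table. TPM is a transcript level corrected for transcript length and scaled to add up to 1000000 in every library. It is a share, so a rise of some genes lowers the others, and fewer cells of a type and less RNA per cell cannot be told apart.

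LPS is a component of the outer membrane of Gram-negative bacteria that macrophages sense through CD14, MD-2 and Toll-like receptor 4. The receptor signals from the plasma membrane through the adaptor MyD88 to NF-kB and MAP kinases, and from endosomes through TRIF to IRF3 and interferon beta, whose secretion then drives a second set of genes through the interferon receptor. GIV is a large cytoplasmic protein that binds actin and modulates trimeric G proteins and PI3K signalling below many receptors. The study asked how it shapes the polarization of macrophages by LPS, and the 6 libraries show what the response looks like when GIV is targeted.

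Ccdc88a, the transcript targeted, was at 6.93, 5.31 and 5.58 TPM without LPS and 3.08, 2.62 and 3.39 TPM with LPS. Every library with LPS lay below every library without, with a log2 change of -0.78 ± 0.13 (SE, limma adjusted p = 0.00104). Log2 changes in the text are the mean with LPS minus the mean without, ± SE. This lies close to the median of all genes (-0.56), and it ranged from -0.78 to -0.13 over the 4 scalings described below. The transcript was thus still present in the depleted cells. In the control line it was at 10.0, 1.18 and 7.69 TPM without LPS and at 5.77 TPM in the library with LPS, and control replicate 2 without LPS stands apart as a whole. Its Spearman correlations across genes with the other 9 libraries were 0.619 to 0.739, while those among the 9 were 0.823 to 0.985. The macrophage identity of the cells was clear from their markers, of which all 10 listed were tested. Lyz2, the lysozyme of macrophages, was the most abundant of them and went from 14842 ± 222 to 8086 ± 121 TPM (SD, n = 3 each). None of the listed T cell, B cell, mast cell, fibroblast or epithelial markers reached the level for testing. Summed levels of the 5 T cell markers were 0.245 to 0.821 TPM without and 0.135 to 0.433 TPM with LPS. Of the neutrophil, endothelial and dendritic cell lists only S100a8, Vwf and Xcr1 were tested, and the sum of the 6 neutrophil markers went from 1.17 to 1.43 TPM to 13.4 to 17.6 TPM. The part of other cells in the changes below was not tested.

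After 5 h of LPS, 1148 genes (8.66% of those tested) were at least 2-fold higher and 3588 (27.1%) at least 2-fold lower, each with a limma adjusted p under 0.05. These are the genes said to have risen or fallen below, and a gene that missed either limit is given with its values only. The table counts gene identifiers, and 156 of those tested repeat the symbol and all 6 values of another (17 of the higher and 44 of the lower). Without the fold limit 10372 genes (78.2%) passed the test, 2166 higher and 8206 lower, and in 80.2% of the tested genes the 2 groups did not overlap. The excess of lower genes depended on the scale. The median change was -0.56 on the deposited scale and -0.06 with TMM scaling, a shift of 0.50, and TMM gave 1766 genes higher (13.3%) and 1740 lower (13.1%). With quantile-normalized values 1611 rose (12.2%) and 1800 fell (13.6%). After rescaling on what is left when mitochondrial and the 100 most abundant genes are removed, 1311 rose (9.89%) and 3521 fell (26.6%). The shares of 8.66% and 27.1% are the background for the counts of list members, and a count near them says nothing particular about a list. Counts for gene lists are followed by their range over these 4 scalings wherever it is wider than 1 value. Single genes were called on the deposited scale. Some that fell, such as Irak1, Dock2, Lpl, Alox5ap and Mir17hg, were under 2-fold in another scaling. Of the 1148 higher genes 319 reached the level for testing in libraries with LPS only, so a difference was built into their choice. The same holds for 475 of the 3588 lower genes, which reached it in libraries without LPS only. Where such genes are members of a list, they are part of its counts and median.

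A small set of transcripts took over a large part of the RNA. The genes that rose held 3.03% to 3.07% of all TPM without LPS and 21.4% to 22.4% with it. The genes that fell held 16.6% to 16.9% and then 5.59% to 6.20%. These shares describe genes chosen by the same contrast, so no test is given for them. Chemokines alone, 15 genes, went from 0.127% to 0.131% of TPM to 4.27% to 4.52%. The largest gain in mean level among all tested genes was in Ccl3, a chemokine that attracts monocytes and T cells, which went from 369 ± 16.1 to 17753 ± 460.4 TPM (SD, n = 3 each). Among the 10 largest gains were also Mir6236 and the pseudogene Gm19220, whose groups overlapped. Gm19220 varied widely between replicates, at 50786, 15082 and 39684 TPM without LPS and 68670, 12237 and 55256 TPM with LPS. The largest loss was in Lyz2. In the opposite direction, the 13 mitochondrially encoded protein transcripts went from 6.34% to 7.92% of TPM to 3.47% to 4.58% (exact two-sided permutation p = 0.1, the smallest that 3 against 3 allows). Replicates resembled each other more than the 2 groups did, with Spearman correlations across genes of 0.982 to 0.985 within the libraries without LPS, 0.972 to 0.974 within those with LPS and 0.823 to 0.834 between the groups.

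**Figure D1:**
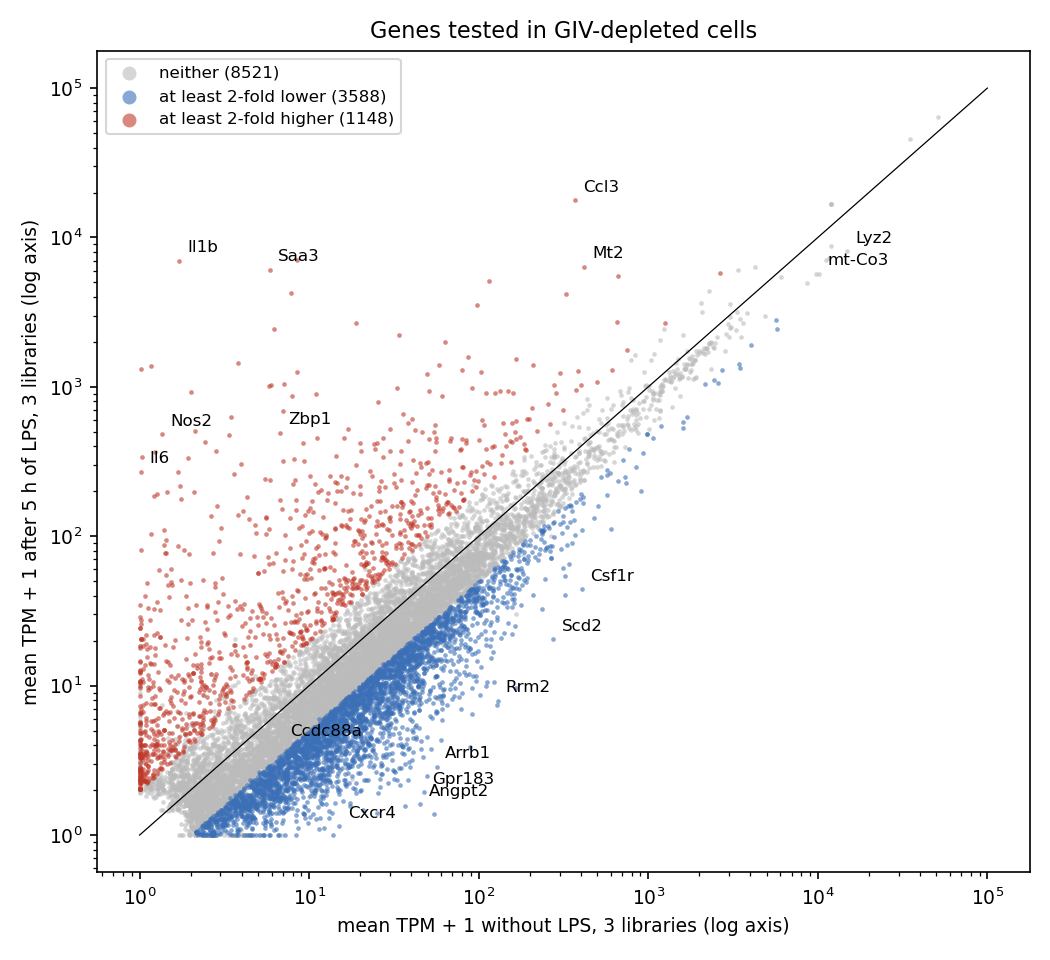
Mean TPM + 1 of each of the 13257 tested genes without LPS (horizontal, log axis) and after 5 h of LPS (vertical, log axis), 3 libraries each; red points are the 1148 genes at least 2-fold higher, blue points the 3588 at least 2-fold lower and grey points neither, and the line marks equal levels. Il1b, Saa3 and Ccl3 lie far above the line, and Gpr183, Angpt2 and Cxcr4 far below it.

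Switch-like changes were seen at both ends. Under 73 identifiers (69 symbols) every library without LPS was under 1 TPM and every library with LPS at or above 10 TPM, and 19 showed the reverse. Il1b, the secreted fever cytokine interleukin 1 beta, was at 0.296, 0.768 and 1.09 TPM without LPS and 7039.9, 7022 and 6954 TPM with LPS. The 3 libraries with LPS agreed closely and the groups were far apart, with a log2 change of 12.02 ± 0.16 (limma adjusted p = 3.21e-08). Among the genes that switched the other way was Angpt2, the vessel-destabilizing ligand angiopoietin 2, at 44.2, 46.1 and 42.7 TPM without LPS and 0.622, 0.761 and 0.464 TPM with LPS. Its log2 change was -4.81 ± 0.09 (limma adjusted p = 8.70e-08). Like the others of the 19, Angpt2 reached the level for testing in libraries without LPS only, so a difference was built into its choice. Cxcr4, the receptor that holds cells in the bone marrow, was at 11.9, 14.9 and 15.4 TPM without LPS and 0.0769, 0.143 and 0.210 TPM with LPS, so that all 3 libraries with LPS were near 0.

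Promoters of genes that respond to LPS are known to hold motifs for NF-kB and for interferon-regulated factors, and those of cell division genes motifs for E2F and NF-Y. The 160 bases before the RefSeq start site (build GRCm38.p6) are printed for 6 genes, 5′ to 3′ on the gene's strand, since these genes stand for the inflammatory, interferon and cell division groups described below. Capitals in Cxcl2 and Il6 mark the kB motif (GGG, any 2 bases, then TTTCC), those in Isg15 and Ifit1 the interferon response motif (GAAA, any 2 bases, then GAAA), those in Cdc6 the E2F motif TTCCCGC and those in Mcm5 the box CCAAT, each searched on both strands.
Cxcl2 (chr5:90903739-90903898, plus strand): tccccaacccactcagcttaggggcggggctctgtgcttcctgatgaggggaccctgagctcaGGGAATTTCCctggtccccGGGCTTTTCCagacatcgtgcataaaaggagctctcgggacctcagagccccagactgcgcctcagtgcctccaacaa
Il6 (chr5:30012954-30013113, plus strand): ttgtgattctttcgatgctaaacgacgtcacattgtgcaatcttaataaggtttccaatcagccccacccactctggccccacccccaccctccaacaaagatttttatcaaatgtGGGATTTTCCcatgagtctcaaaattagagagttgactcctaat
Isg15 (chr4:156200819-156200978, minus strand): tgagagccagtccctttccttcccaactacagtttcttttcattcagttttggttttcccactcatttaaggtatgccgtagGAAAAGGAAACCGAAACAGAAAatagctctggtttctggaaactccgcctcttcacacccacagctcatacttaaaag
Ifit1 (chr19:34640729-34640888, plus strand): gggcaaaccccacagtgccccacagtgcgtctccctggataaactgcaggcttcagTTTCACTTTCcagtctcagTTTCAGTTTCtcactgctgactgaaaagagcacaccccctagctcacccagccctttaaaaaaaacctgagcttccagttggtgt
Cdc6 (chr11:98907991-98908150, plus strand): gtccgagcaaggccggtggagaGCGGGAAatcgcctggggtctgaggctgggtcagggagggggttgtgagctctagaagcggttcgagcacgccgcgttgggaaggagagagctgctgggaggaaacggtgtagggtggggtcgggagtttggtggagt
Mcm5 (chr8:75109349-75109508, plus strand): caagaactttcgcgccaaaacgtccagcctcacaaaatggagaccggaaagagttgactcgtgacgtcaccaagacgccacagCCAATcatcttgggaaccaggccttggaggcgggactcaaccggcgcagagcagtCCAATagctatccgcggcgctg
The kB matches of Cxcl2 begin at positions -97 and -78 from the start site, and that of Il6 at -44. Ifit1 has interferon response matches at -104 and -85, and Isg15 has 3 that overlap, the first at -78. These matches are descriptions of letters and not shown to be sites.

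The same motifs were counted in the 300-base windows (250 bases before and 50 after the start) of all RefSeq promoters that matched a tested gene by symbol, 11410 in number. The kB motif was in 1.80% of them, in 4.16% of the 938 promoters of genes that rose and in 1.12% of the 3473 promoters of genes that fell. Among 30 promoters of the listed cytokines and chemokines it was in 23.3%. The interferon response motif was in 3.38% of tested promoters, 12.9% of those that rose, 2.27% of those that fell and 54.1% of 37 promoters of interferon-stimulated genes. The letters TATAAA were in 7.13%, 14.1%, 6.02% and, for the cytokines and chemokines, 40.0%. The AP-1 motif TGANTCA was in 5.13% of tested promoters, 10.9% of those that rose and 4.46% of those that fell. The E2F motif showed the opposite order, with 8.40% of tested, 5.12% of risen and 10.6% of fallen promoters, and 25.9% of 27 promoters of the DNA replication and mitosis list. CCAAT was in 38.4% of tested, 34.0% of risen and 42.4% of fallen promoters. It was in 74.1% of the replication list and 69.6% of 23 promoters of sterol and fatty acid synthesis genes. The motif TTTGAA was in 12.5% of tested promoters and 33.3% of those of the replication list, but in similar shares of risen (14.4%) and fallen (14.3%) promoters. The letters TGACGTCA, CACGTG and TCACCCCAC were searched too and are not plotted. TGACGTCA was in 3.24% of tested, 2.35% of risen and 2.74% of fallen promoters. CACGTG was in 10.2%, 8.21% and 11.0%, and TCACCCCAC in 0.596%, 0.320% and 0.576%. Over all 32851 promoters the shares were 1.63% for kB, 3.44% for the interferon response motif, 13.6% for TATAAA, 7.81% for AP-1, 4.60% for E2F, 37.4% for CCAAT and 17.9% for TTTGAA. Risen promoters held less G and C, with a median of 55.3% against 60.3% in all tested and 61.3% in fallen promoters. Windows overlap where a gene has several starts, so no test was made.

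**Figure D2:**
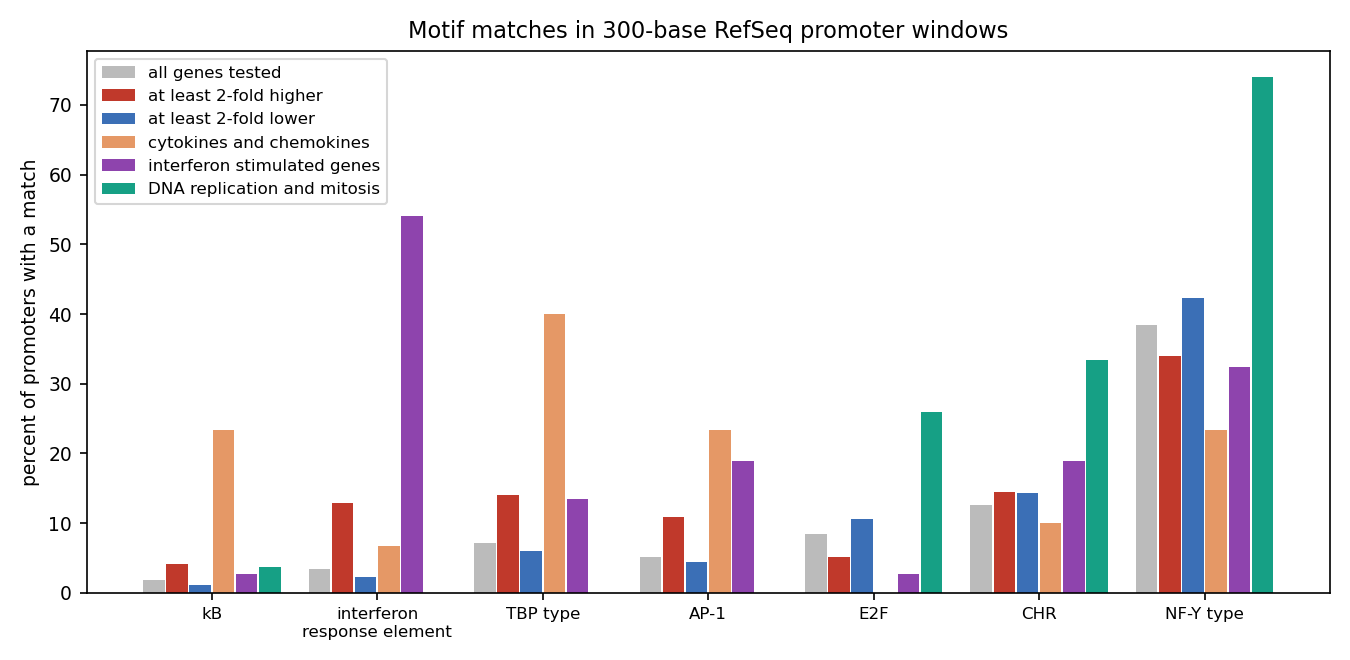
Percent of 300-base RefSeq promoter windows with at least 1 match on either strand (vertical) for 7 motifs (horizontal), with bars from left to right for all tested genes, genes at least 2-fold higher, genes at least 2-fold lower and 3 gene lists. The interferon response motif reaches 54.1% in the interferon-stimulated list against 3.38% in all tested genes, and the NF-Y type motif (the letters CCAAT) reaches 74.1% in the DNA replication list.

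The sensing apparatus itself changed in both directions. Of 23 tested genes of LPS sensing and proximal signalling 7 rose (7 to 10) and 5 fell (1 to 5). Of all genes 8.66% rose and 27.1% fell. Tlr4, the receptor, was at 23.1, 24.6 and 21.7 TPM without LPS and 12.01, 8.66 and 7.98 TPM with LPS. All libraries with LPS were lower, with a log2 change of -1.21 ± 0.14 (limma adjusted p = 2.28e-04) that ranged from -1.21 to -0.62 over the 4 scalings. Ticam2, the adaptor TRAM that links the receptor to TRIF, fell more, from 10.4 ± 1.58 to 1.77 ± 0.0976 TPM (SD, n = 3 each) (-2.03 ± 0.12). The co-receptor Cd14 rose from 1256 ± 15.04 to 2682 ± 160.3 TPM (SD, n = 3 each), and its level was the highest of the list. The adaptor Myd88 was at 70.1, 74.95 and 75.8 TPM without LPS and 225, 235 and 217 TPM with LPS, so that the groups did not overlap (1.60 ± 0.05). The kinase Ikbke, which phosphorylates interferon regulatory factors, rose by 3.55 ± 0.07, and Map3k8, the kinase upstream of ERK in this pathway, by 2.31 ± 0.08. Traf3 and Irak1, a ubiquitin ligase and a kinase of the receptor complex, fell with changes of -1.31 ± 0.06 and -1.05 ± 0.08. That of Irak1 ranged from -1.05 to -0.48 over the 4 scalings.

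Sensors for other microbial signals were mostly higher. Of 21 tested genes 12 rose (12 to 16) and 1 fell (0 to 1). Zbp1, a sensor of left-handed nucleic acid helices that can start cell death, was at 6.59, 6.18 and 4.42 TPM without LPS and 482, 502 and 491 TPM with LPS, far apart in the 2 groups. The viral RNA sensor Ifih1 rose by 4.81 ± 0.11 and the endosomal RNA receptor Tlr3 by 3.67 ± 0.11. Nod1, which senses bacterial peptidoglycan fragments, went from 0.196 ± 0.134 to 8.98 ± 0.576 TPM (SD, n = 3 each). Tlr13, a receptor for bacterial ribosomal RNA, was the gene that fell, with 13.3, 13.7 and 14.1 TPM without LPS and 4.87, 4.59 and 4.43 TPM with LPS. Nlrp3, the inflammasome sensor, was at 25.5, 23.7 and 24.9 TPM without LPS and 207, 211 and 182 TPM with LPS, a change of 2.96 ± 0.07 (named after its values were seen).

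The NF-kB family and its inhibitors rose as a group, 9 of 11 genes in each of the 4 scalings and none fell. Nfkbiz, a nuclear cofactor that many secondary response genes need, was at 3.42, 3.13 and 3.29 TPM without LPS and 196, 185 and 163 TPM with LPS. The groups were far apart, with a change of 5.41 ± 0.08 (limma adjusted p = 3.63e-08). Bcl3, another nuclear cofactor, rose by 3.39 ± 0.08, and Nfkb1, the precursor of p50, by 2.17 ± 0.05. The inhibitor Nfkbia had the highest level of the list, from 148 ± 4.47 to 943 ± 87.9 TPM (SD, n = 3 each). Rela, the main activating subunit, stands out by its small difference and was named after its values were seen. It was at 28.8, 28.1 and 30.03 TPM without LPS and 28.2, 29.5 and 25.6 TPM with LPS, the groups overlapped, and the change of -0.06 ± 0.07 did not pass the test (limma adjusted p = 0.415) and turned to 0.50 with TMM scaling.

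Inducible transcription factors rose more often than they fell. Of 33 tested 15 rose (15 to 20) and 7 fell (4 to 7). Of all genes 8.66% rose and 27.1% fell. Irf7, the amplifier of interferon production, was at 61.9, 60.1 and 50.1 TPM without LPS and 1346, 1515 and 1339 TPM with LPS. Batf2 rose by 4.88 ± 0.06, Cebpd, a partner of NF-kB in the Il6 gene, by 4.17 ± 0.05, Stat2 by 3.05 ± 0.07 and the repressor Atf3 by 2.66 ± 0.10. The AP-1 genes went apart 5 h into the response. Fos was at 72.3, 63.4 and 72.8 TPM without LPS and 23.1, 24.3 and 20.6 TPM with LPS, all libraries with LPS lower, a change of -1.58 ± 0.08, while Junb, named after its values were seen, rose by 1.77 ± 0.08. Klf10 and Bhlhe40 also fell, with log2 changes of -1.98 ± 0.17 and -1.95 ± 0.08.

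Cytokine genes rose almost without exception. Of 24 tested genes of the cytokine list, 23 rose (23 to 24) and none fell, and their median change was 4.08 against -0.56 for all genes. Il6, Csf3, Il1a, Il10, Il33, Csf2 and Ifnb1, among others, reached the level for testing in libraries with LPS only. A difference was thus built into their choice, and into part of this count and median. Il6, the cytokine that drives the acute phase response, was at 0, 0.0535 and 0 TPM without LPS and 307, 254 and 247 TPM with LPS. It was close to 0 in all libraries without LPS and above 240 TPM in all with it, a change of 8.05 ± 0.09 (limma adjusted p = 2.07e-08). Csf3, the growth factor of neutrophils, was at 0.247, 0.199 and 0.0346 TPM without LPS and 1384, 1540.4 and 1233 TPM with LPS. Il1a, the alarm cytokine that works without secretion signals, was at 0, 0.0451 and 0 TPM without LPS and 1414, 1234 and 1287 TPM with LPS. In each the groups were separated by orders of magnitude, so the log2 changes of 10.22 ± 0.11 and 10.34 ± 0.06 depend on the value of 1 added before taking logs. Il27, a cytokine that tunes T cells, rose by 8.85 ± 0.09. Il33 and Csf2 are listed at 0 in every library without LPS, and so have no fold. Csf2, the growth factor GM-CSF, named after its values were seen, was at 13.2, 15.6 and 11.8 TPM with LPS, and Il33, an alarm cytokine, at 18.8, 13.6 and 17.97 TPM. The interferon beta gene Ifnb1, named after its values were seen, was at 0.0800, 0.150 and 0.233 TPM without and 27.7, 26.1 and 25.5 TPM with LPS. Anti-inflammatory members rose alongside. Il10 was at 0.154, 0.218 and 0.265 TPM without LPS and 201, 167 and 182 TPM with LPS and the receptor antagonist Il1rn at 93.5, 93.6 and 103 TPM without LPS and 3669, 3533 and 3423 TPM with LPS, both named after their values were seen. Tgfb1, the list member that passed the 2-fold limit in only some scalings, had a change of 0.77 ± 0.09 (0.77 to 1.34 over the 4).

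All 15 tested chemokines of 21 listed rose in each scaling. Ccl22, for one, reached the level for testing in libraries with LPS only, so a difference was built into its choice. Ccl5, which attracts T cells, was at 8.75, 6.66 and 7.03 TPM without LPS and 6503, 7579.9 and 7070.0 TPM with LPS, a change of 9.71 ± 0.10 (limma adjusted p = 1.56e-08). Cxcl2, which attracts neutrophils and whose promoter holds the 2 kB matches printed above, was at 6.14, 6.24 and 8.11 TPM without LPS and 4310.4, 4710.2 and 3699 TPM with LPS (9.08 ± 0.12). Ccl3 had the highest level with LPS, 17917, 18109 and 17233 TPM. Ccl22, a ligand of CCR4 on regulatory T cells, went from 0.227 ± 0.0861 to 364 ± 3.79 TPM (SD, n = 3 each), and the interferon-inducible Cxcl11 from 1.13 ± 0.326 to 503 ± 53.1 TPM (SD, n = 3 each). The monocyte chemokine Ccl2 rose by 7.17 ± 0.15. Outside the chemokines, Saa3, the serum amyloid A form of macrophages, was at 5.89, 5.94 and 2.75 TPM without LPS and 5975, 6041 and 6251 TPM with LPS, and Lcn2, which withholds iron from bacteria, at 0, 0.115 and 0 TPM without LPS and 333, 349 and 331 TPM with LPS.

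**Figure D3:**
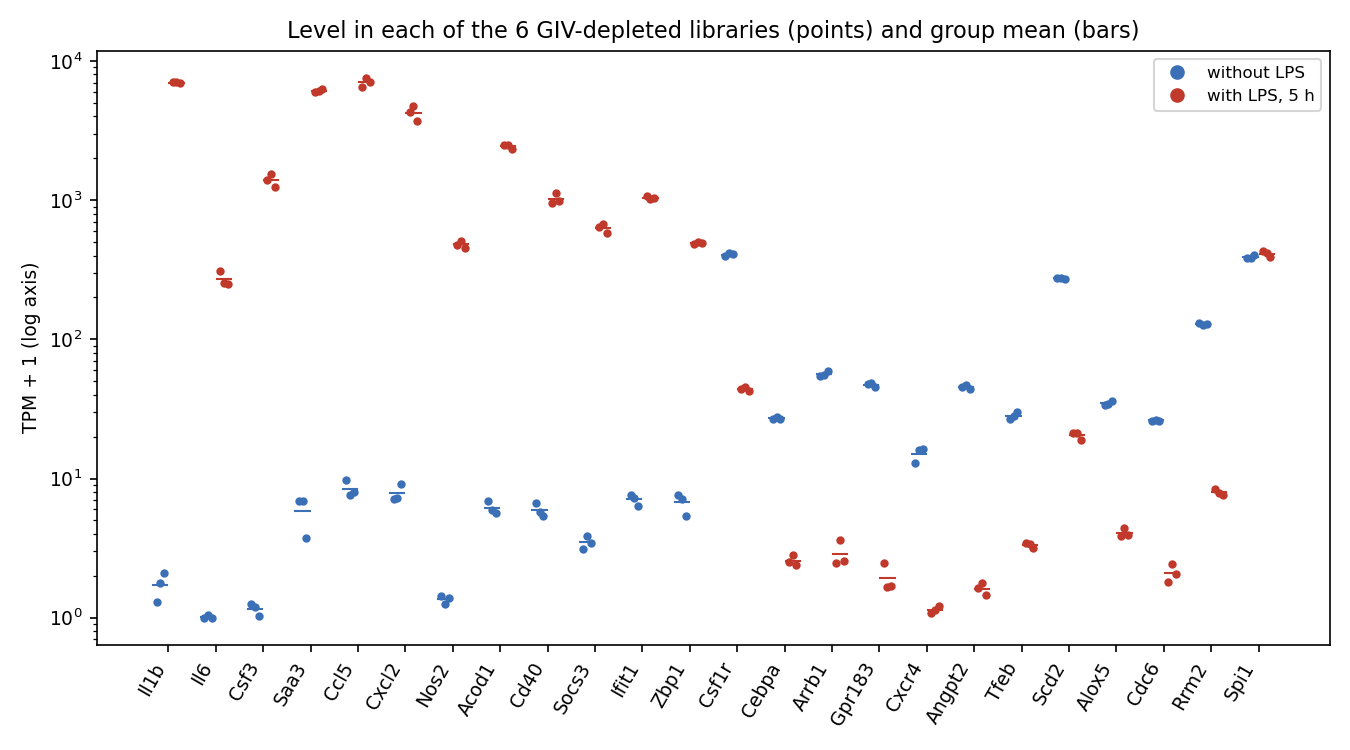
TPM + 1 (vertical, log axis) of 24 genes in each GIV-depleted library without LPS (blue points) and with 5 h of LPS (red points), with bars at the group means. The 12 genes from Il1b to Zbp1 lie higher with LPS in all 3 libraries, the 11 from Csf1r to Rrm2 lie lower in all 3, and the 2 groups of Spi1 overlap.

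All 37 interferon-stimulated genes rose in each of the 4 scalings, with a median change of 4.94. Ifit1, which binds viral RNA lacking host caps, was at 6.67, 6.28 and 5.33 TPM without LPS and 1067, 1026 and 1029.8 TPM with LPS. Isg15, a ubiquitin-like modifier, was at 41.6, 32.5 and 24.6 TPM without LPS and 2147, 2362 and 2179.9 TPM with LPS, the highest level of the list with LPS. Both were separated between groups, with changes of 7.20 ± 0.08 and 6.07 ± 0.17. Gbp3 and Gbp2, GTPases that attack vacuoles of microbes, rose by 7.46 ± 0.08 and 7.44 ± 0.07, and Rsad2, the antiviral enzyme viperin, by 7.45 ± 0.12. Bst2, a tether of budding viruses named after its values were seen, had the smallest change of the 6 interferon genes named here, 2.76 ± 0.07.

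Some of the genes that rose are neighbours. Along the chromosomes and unplaced scaffolds (GENCODE M21, GRCm38), 17 stretches of at least 5 consecutive tested protein-coding genes consisted only of genes that rose. They held 110 genes in all, while 886 of 10788 tested protein-coding genes rose. The longest, 13 genes, is the family of DNA sensors of the interferon-activated gene 200 group on chromosome 1 (173350879 to 174031810, from Aim2 to Ifi205), with changes of 1.33 to 6.98. On chromosome 11 (83511736 to 83752642) a stretch of 9 genes holds Heatr9, the chemokines Ccl5, Ccl9, Ccl6, Ccl3 and Ccl4, and Wfdc17, Wfdc18 and Wfdc21, small protease inhibitor-like proteins, with changes of 1.80 to 9.71. The Ifit genes form a stretch of 6 on chromosome 19 (34550694 to 34650009) with changes of 4.75 to 7.24. Next to them, Slc16a12 on one side changed by -3.44 and the death receptor gene Fas, beyond Ch25h and Lipa on the other, by 5.47. A further stretch runs from Irgm1 to Ifi47 (10 genes, chromosome 11) and holds GTPases but also Psme2b and Olfr56. Trim34, Trim12c and Trim30 genes form another (7, chromosome 7), as do Ms4a genes with Gm8369 (7, chromosome 19). Others hold Slfn genes (6, chromosome 11) and Phf11 genes with Gm6904 and Setdb2 (6, chromosome 14). Gbp genes fill stretches on chromosomes 3 and 5 (5 each, with Gm43302 on chromosome 5). Aif1, Lst1, Ltb, Tnf and Lta form 1 more (5, chromosome 17). In the Ifi200, Ifit, Irgm, Trim30, Ms4a, Slfn, Phf11 and Gbp families near-identical copies can share reads, so the split between single members is uncertain. Fallen genes formed 38 such stretches, with 222 genes and at most 9 in a row, while 3239 of 10788 tested protein-coding genes fell.

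**Figure D4:**
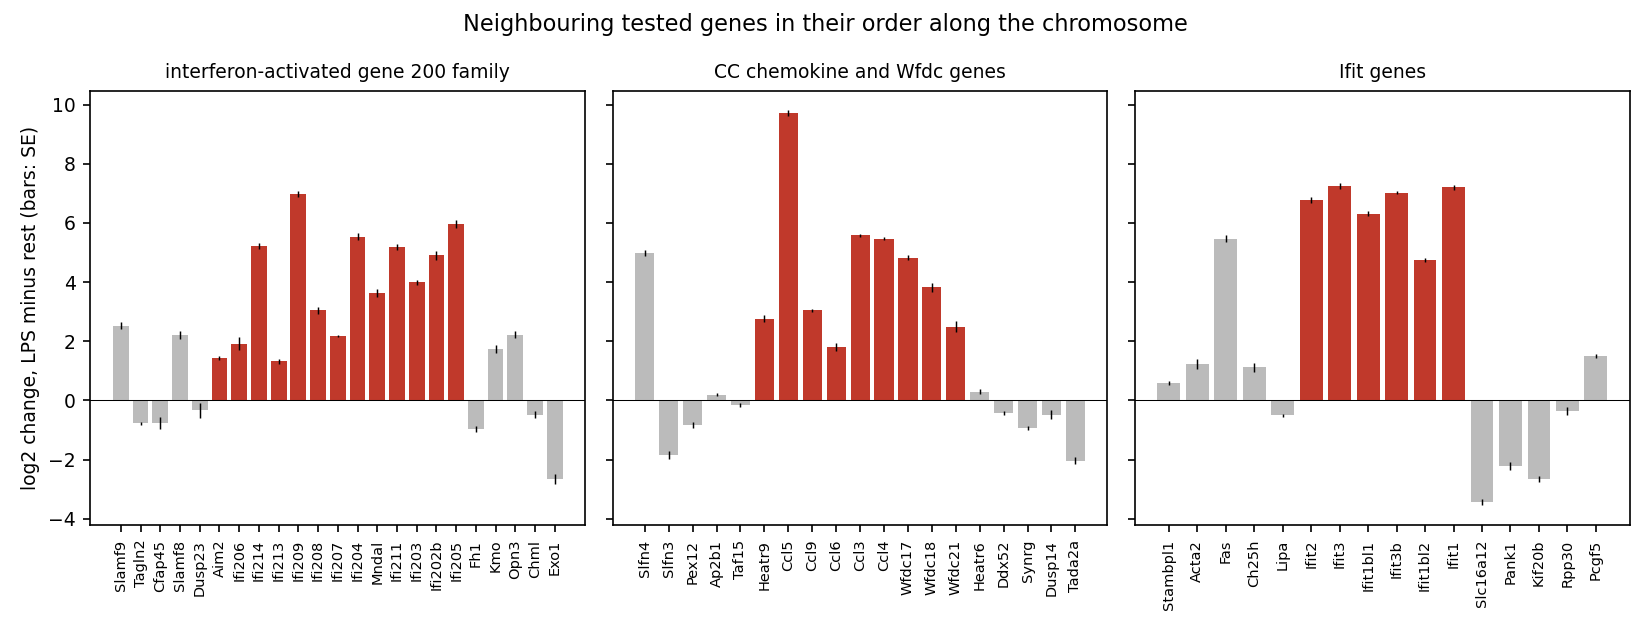
Log2 change with LPS (vertical, error bars are SE) of tested protein-coding genes in their order along the chromosome, for 3 stretches of genes that all rose (red) with the 5 nearest tested genes on each side (grey). The red stretches reach 6.98, 9.71 and 7.24, and the grey neighbours range from -3.44 to 5.47.

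Antigen presentation rose with the interferon genes, 12 of 16 tested (11 to 14) and none fell. Tap1, which pumps peptides into the endoplasmic reticulum, was at 19.5, 18.8 and 18.4 TPM without LPS and 219.7, 229.8 and 199 TPM with LPS, without overlap of the groups. Nlrc5, the transactivator of MHC class I genes, rose by 2.92 ± 0.07. B2m, the light chain of class I molecules, had the highest level of the list and a change of 0.81 ± 0.06, below the 2-fold limit. Molecules that instruct T cells followed, with 9 of 12 higher and 1 lower in each scaling. Cd40, the receptor for T cell help, was at 5.64, 4.79 and 4.37 TPM without LPS and 954, 1133 and 991 TPM with LPS. Its change of 7.44 ± 0.10 was the largest of the list (limma adjusted p = 3.17e-08). The inhibitory ligand Cd274 (PD-L1) rose by 4.28 ± 0.08 and Lgals9, a galectin that binds TIM-3, by 3.92 ± 0.08. Vsir, the checkpoint molecule VISTA, went the other way, at 80.7, 94.8 and 100.1 TPM without LPS and 10.2, 10.99 and 10.8 TPM with LPS, a change of -2.99 ± 0.09.

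Feedback inhibitors of the pathway rose in 15 of 23 tested genes (15 to 19), and none fell. Socs3, which blocks cytokine receptor kinases, was at 2.13, 2.83 and 2.47 TPM without LPS and 636, 672 and 583 TPM with LPS, a change of 7.51 ± 0.09 (limma adjusted p = 2.33e-08). Zfp36, the protein tristetraprolin that marks cytokine mRNA for decay, rose by 4.97 ± 0.07. The MAP kinase phosphatases Dusp5 and Dusp1 rose by 4.60 ± 0.09 and 4.41 ± 0.07, and the ubiquitin editor Tnfaip3 (A20) by 4.39 ± 0.11.

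Receptors coupled to G proteins changed in both directions, with 14 of 27 tested higher (14 to 16) and 5 lower in each scaling. The shares of all genes were 8.66% higher and 27.1% lower. Among those that rose, Ccrl2, a chemerin-binding receptor, was at 1.59, 2.06 and 1.88 TPM without LPS and 166, 163 and 146 TPM with LPS. Hcar2, the receptor for niacin and ketone bodies, rose by 4.98 ± 0.08, the adenosine receptor Adora2b by 4.44 ± 0.09, and Fpr2, a receptor for formyl peptides, went from 0.0412 ± 0.0358 to 19.5 ± 0.648 TPM (SD, n = 3 each). Gpr84, a receptor for medium-chain fatty acids, had the highest level of the list, 226, 256 and 201 TPM with LPS. Those that fell include Gpr183, Cxcr4, Cx3cr1 and S1pr1. Gpr183, which guides cells along oxysterol gradients, was at 47.05, 47.3 and 44.8 TPM without LPS and 1.48, 0.653 and 0.696 TPM with LPS, a change of -4.63 ± 0.16 (limma adjusted p = 8.29e-07). The fractalkine receptor Cx3cr1, also a macrophage marker, fell, with a log2 change of -2.23 ± 0.06, and S1pr1, which steers exit from tissues, with -1.65 ± 0.20.

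GIV is known to act on trimeric G proteins. Of 38 tested genes of these proteins and their regulators 3 rose (3 to 5) and 12 fell (5 to 12), shares near the 8.66% and 27.1% of all genes, and the median change of -0.69 was close to the -0.56 of all genes. Arrb1, the beta-arrestin that ends receptor signalling, had the largest fall of the list at 53.2, 54.8 and 58.5 TPM without LPS and 1.46, 2.60 and 1.57 TPM with LPS. Its change of -4.32 ± 0.15 (limma adjusted p = 8.08e-07) ranged from -4.45 to -3.84 over the 4 scalings. Grk6, a kinase that tags active receptors for arrestin, was at 27.2, 28.2 and 29.2 TPM without LPS and 4.78, 4.50 and 3.97 TPM with LPS (-2.43 ± 0.08). Rgs10, which speeds the shut-off of G alpha subunits, was at 141, 142 and 154 TPM without LPS and 33.6, 33.4 and 30.7 TPM with LPS (-2.13 ± 0.06). Gna11 and the adenylyl cyclase Adcy3 fell too, with log2 changes of -1.47 ± 0.15 and -1.58 ± 0.26. Rising members were Pde4b, which degrades cyclic AMP, at 5.06, 5.57 and 4.75 TPM without LPS and 67.6, 67.5 and 61.4 TPM with LPS, Rgs16, a regulator like Rgs10, with 2.42 ± 0.11, and the beta subunit Gnb4 with 2.06 ± 0.16. Gnb2 had the highest level of the list, from 367 ± 23.01 to 338 ± 6.82 TPM (SD, n = 3 each), and its change of -0.12 ± 0.05 did not pass the test (limma adjusted p = 0.0859), turning to 0.46 with TMM scaling.

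Of 26 PI3K, Akt and mTOR genes 2 rose (2 to 5) and 9 fell (4 to 10), near the 8.66% and 27.1% of all genes, with a median of -0.69. Sesn1, a stress-inducible inhibitor of mTOR, was at 15.8, 14.8 and 15.7 TPM without LPS and 1.35, 0.954 and 1.06 TPM with LPS, a change of -2.96 ± 0.10. The regulatory subunit Pik3r2, also under 2 identifiers with equal values, fell, with a log2 change of -1.97 ± 0.08 and the lipid phosphatase Inpp5d (SHIP1) with -1.62 ± 0.14. Pik3ap1, the adaptor BCAP that couples Toll-like receptors to PI3K, rose by 1.09 ± 0.07. Akt1, named after its values were seen, was at 178, 178 and 175 TPM without LPS and 80.2, 86.6 and 71.5 TPM with LPS, and its change of -1.15 ± 0.07 ranged from -1.15 to -0.57 over the 4 scalings. Among single genes of the actin cytoskeleton, Rnd1, a small GTPase that loosens it, was at 3.60, 4.10 and 3.74 TPM without LPS and 118, 119 and 114 TPM with LPS. Marcksl1, a membrane-bound actin regulator, went from 85.3 ± 1.63 to 1589.7 ± 91.9 TPM (SD, n = 3 each), and Arhgef3, an activator of RhoA, rose by 3.77 ± 0.07. Actb itself rose by 1.11 ± 0.08 (0.82 to 1.69 over the 4 scalings), while Dock2, an activator of Rac, fell, with a log2 change of -1.18 ± 0.05. Of 13 integrin and adhesion genes 5 rose (5 to 6) and 2 fell (0 to 2), with Itgal, the alpha chain of LFA-1, at 7.52, 6.79 and 6.94 TPM without LPS and 65.4, 74.4 and 63.2 TPM with LPS.

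Macrophage markers and uptake receptors moved both ways. Csf1r, the receptor of the macrophage growth factor CSF-1, was at 396, 414 and 408 TPM without LPS and 42.8, 44.6 and 41.8 TPM with LPS. The change of -3.21 ± 0.04 (limma adjusted p = 3.21e-08) ranged from -3.21 to -2.63 over the 4 scalings. Of 21 phagocytic and scavenger receptors 7 rose (7 to 10) and 4 fell in each scaling, against 8.66% and 27.1% of all genes. Sirpa, which reads the CD47 signal on healthy cells, fell, with a log2 change of -2.38 ± 0.06, Trem2, a lipid receptor whose values stand under 2 identifiers, with -1.91 ± 0.07, and Scarb1, the receptor for high density lipoprotein, with -1.86 ± 0.06. Fcgr1, the high-affinity receptor for antibodies and also a macrophage marker, was at 7.74, 7.57 and 6.37 TPM without LPS and 239.5, 237 and 240.1 TPM with LPS, and Fcgr4, another activating antibody receptor, rose by 4.05 ± 0.10. Tyrobp, the signalling chain that Trem2 uses, had a change of -0.69 ± 0.07, below the 2-fold limit. The other macrophage markers went both ways as well. Adgre1 (F4/80) and Itgam (CD11b) rose by 1.26 ± 0.06 and 1.26 ± 0.04, and Cd68, a lysosomal membrane protein, changed with -0.90 ± 0.07.

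Of 19 lineage transcription factors 2 rose (2 to 5) and 5 fell (2 to 5), near the 8.66% and 27.1% of all genes. Spi1 (PU.1), the factor that commits cells to the macrophage lineage, was at 385, 382 and 403 TPM without LPS and 428, 413 and 391 TPM with LPS. The groups overlapped and the change of 0.08 ± 0.05 did not pass the test on the deposited scale (limma adjusted p = 0.198), while it ranged from -0.14 to 0.65 over the scalings. Cebpa, a myeloid differentiation factor, was at 25.9, 26.5 and 25.8 TPM without LPS and 1.52, 1.82 and 1.38 TPM with LPS, all libraries with LPS far lower (-3.40 ± 0.08). Mef2c fell, with a log2 change of -2.09 ± 0.11. Irf8, which works with PU.1, rose by 1.38 ± 0.07. Osteoclast genes were lower in 4 of 9 tested (3 to 4) and higher in 1 (1 to 2). Nfatc1, the master factor of osteoclasts, was at 46.5, 44.6 and 45.8 TPM without LPS and 10.1, 10.3 and 8.73 TPM with LPS, and Tnfrsf11a, the receptor RANK, fell, with a log2 change of -1.73 ± 0.05.

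Energy metabolism held rises and falls side by side. Of 21 glycolysis and glucose uptake genes 3 rose (3 to 4) and 2 fell (1 to 2), against 8.66% and 27.1% of all genes. Pfkfb3, which makes the activator of phosphofructokinase, was at 9.93, 10.98 and 7.86 TPM without LPS and 148, 147 and 135 TPM with LPS. The glucose carriers Slc2a1 and Slc2a6 rose by 1.33 ± 0.09 and 1.36 ± 0.10, while Slc2a3, another glucose carrier, fell, with a log2 change of -2.03 ± 0.09. Pkm, the pyruvate kinase with the highest level of the list, changed with -0.71 ± 0.07. In the tricarboxylic acid cycle list Acod1, the enzyme that diverts cis-aconitate to itaconate, was the only riser among 26 genes, at 5.92, 4.94 and 4.70 TPM without LPS and 2498, 2499 and 2331 TPM with LPS. The change was 8.63 ± 0.08 (limma adjusted p = 1.32e-08). Of the 26, 7 fell (3 to 7), a share near the 27.1% of all genes. Among these 7 were Pdk1, the kinase that inhibits entry of pyruvate into the cycle (-1.98 ± 0.16), and the isocitrate dehydrogenases Idh1 (-1.92 ± 0.07) and Idh3a (-1.41 ± 0.06). Nuclear genes of oxidative phosphorylation were at least 2-fold lower in 6 of 88 (1 to 6), with a median of -0.59, near that of all genes.

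Genes of arginine use moved both ways, with 7 of 15 genes higher in each scaling and 3 lower (1 to 3). The shares of all genes were 8.66% and 27.1%. Nos2, the inducible nitric oxide synthase, was at 0.430, 0.259 and 0.384 TPM without LPS and 478, 511 and 451 TPM with LPS, a change of 8.47 ± 0.07 (limma adjusted p = 1.32e-08). It reached the level for testing in libraries with LPS only, so a difference was built into its choice. Ass1, which regenerates arginine from citrulline, rose by 4.27 ± 0.07, Gch1, the first enzyme for the cofactor of nitric oxide synthase, by 3.39 ± 0.06, and Odc1, the first enzyme of polyamine synthesis, by 3.20 ± 0.05. Spr, the last enzyme for that cofactor, and the spermidine synthase Srm fell instead, with log2 changes of -1.92 ± 0.07 and -1.51 ± 0.09. In the amino acid stress list 6 of 22 rose (6 to 11) and 2 fell (0 to 2). Slc7a11, the cystine importer, rose by 2.64 ± 0.10, Chac1, which breaks down glutathione, by 2.38 ± 0.09, and their regulator Atf4 by 1.02 ± 0.06. No chaperone of the endoplasmic reticulum rose (0 to 1 of 20), and 5 fell (2 to 5), near the 27.1% of all genes. Among the 5 were Sdf2l1 (-1.89 ± 0.06) and the stress sensor Atf6 (-1.63 ± 0.05).

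Lipid synthesis genes only moved down. None of 27 sterol and fatty acid synthesis genes rose in any scaling, and 13 fell (9 to 13), with a median of -0.97. Scd2, a fatty acid desaturase, was at 277, 275 and 271 TPM without LPS and 20.2, 20.4 and 18.03 TPM with LPS. The groups were far apart, with a change of -3.75 ± 0.06 (limma adjusted p = 4.18e-08). Dhcr7, an enzyme of the last steps of cholesterol synthesis, fell with it and was at 37.3, 39.4 and 42.4 TPM without LPS and 3.67, 3.63 and 3.14 TPM with LPS. Of 14 genes of sterol export and LXR targets 3 rose (3 to 5) and 4 fell (2 to 4). The fallen share was near the 27.1% of all genes. Cyp27a1, which makes the oxysterol that feeds LXR, fell, with a log2 change of -2.67 ± 0.09, the apolipoprotein Apoe with -1.75 ± 0.16 and the lipoprotein lipase Lpl with -1.24 ± 0.07, while the lysosomal cholesterol carrier Npc2 rose by 1.33 ± 0.04. Eicosanoid enzymes moved both ways. Ptgs2 (cyclooxygenase 2) was at 2.88, 2.64 and 2.83 TPM without LPS and 1638, 1367 and 1317 TPM with LPS and Ptges, which completes prostaglandin E2, rose by 3.75 ± 0.13, while Hpgds, which makes prostaglandin D2, fell, with a log2 change of -1.81 ± 0.10. The leukotriene enzyme Alox5 was at 32.8, 33.6 and 34.98 TPM without LPS and 2.87, 3.44 and 2.91 TPM with LPS, lower in every library with LPS (-3.10 ± 0.08), and its helper Alox5ap fell, with a log2 change of -1.47 ± 0.07. In all 3 of 15 rose (3 to 4) and 8 fell (4 to 8).

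Metal and redox genes moved both ways. Of 29 tested 9 rose (9 to 13) and 5 fell (3 to 6), against 8.66% and 27.1% of all genes. The metallothionein Mt2, which binds zinc and copper, was at 380.4, 451 and 415 TPM without LPS and 5978, 6729.9 and 6442 TPM with LPS. Sod2, the mitochondrial superoxide dismutase, rose by 2.82 ± 0.06. Gclc, the first enzyme of glutathione synthesis, was at 41.2, 40.4 and 40.9 TPM without LPS and 7.14, 6.73 and 6.55 TPM with LPS, and the glutathione peroxidase Gpx1 fell, with a log2 change of -1.59 ± 0.05. The 2 ferritin chains moved apart without reaching 2-fold, Fth1 with 0.84 ± 0.05 (named after its values were seen) and Ftl1 with -0.68 ± 0.08. Among 192 solute carriers 17 rose (17 to 24) and 73 fell (42 to 73), against 8.66% and 27.1% of all genes. The nucleoside carrier Slc28a2 was at 0.750, 0.727 and 0.576 TPM without LPS and 87.4, 88.6 and 78.7 TPM with LPS, and the peptide carrier Slc15a3, which works at endolysosomes, rose by 4.04 ± 0.09. The inositol carrier Slc5a3 was at 29.2, 25.8 and 29.4 TPM without LPS and 1.28, 1.34 and 1.07 TPM with LPS, and the neutral amino acid carrier Slc43a2 fell, with a log2 change of -3.46 ± 0.08.

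Lysosome and autophagy genes were lower in 10 of 26 (3 to 10) and higher in 2, against 27.1% and 8.66% of all genes. Their median change of -0.60 was close to the -0.56 of all genes. Tfeb, the master regulator of lysosomal genes, was at 25.8, 27.1 and 28.8 TPM without LPS and 2.42, 2.37 and 2.17 TPM with LPS. Its change of -3.09 ± 0.07 was the largest fall of the list (limma adjusted p = 1.98e-07). Atp6v0d2, a subunit of the proton pump, fell, with a log2 change of -2.70 ± 0.06, whereas the cysteine protease Ctsl was at 283, 282 and 286 TPM without LPS and 868, 976 and 889 TPM with LPS. Matrix, protease and coagulation genes rose in 13 of 19 (13 to 15) and fell in 2 (1 to 2). Serpinb2, an inhibitor of plasminogen activators, was at 0, 0 and 0.0766 TPM without LPS and 91.97, 71.6 and 75.8 TPM with LPS, and Timp1, an inhibitor of matrix proteases, at 0.138, 0.313 and 0.834 TPM without LPS and 87.7, 89.5 and 101 TPM with LPS. The gelatinase Mmp9 rose by 3.72 ± 0.08, and the receptor Plaur, named after its values were seen, by 4.21 ± 0.06. Its ligand, the plasminogen activator Plau, fell, with 86.5, 90.1 and 92.5 TPM without LPS and 15.3, 16.2 and 14.3 TPM with LPS. Of 15 growth and vessel factors 4 rose (4 to 6) and 5 fell (4 to 5), led upward by the vasoconstrictor peptide Edn1 (4.12 ± 0.11) and downward by Angpt2 and by Plxnd1, a semaphorin receptor (-3.84 ± 0.14).

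Genes of DNA replication and mitosis fell together, 33 of 33 tested (32 to 33), with a median of -2.52. Their summed level went from 3396 to 3466 TPM to 629.5 to 672 TPM. Rrm2, the ribonucleotide reductase subunit that limits DNA precursors, was at 131, 126 and 128 TPM without LPS and 7.37, 6.81 and 6.67 TPM with LPS. The 6 libraries formed tight and separate groups, with a change of -4.02 ± 0.05 (limma adjusted p = 3.15e-08). Tk1, which salvages thymidine, was at 126, 129.8 and 126 TPM without LPS and 6.42, 6.89 and 6.04 TPM with LPS. Cdc6, which loads the replication helicase, was at 25.1, 25.5 and 24.9 TPM without LPS and 0.816, 1.42 and 1.05 TPM with LPS, close to 1 TPM in every library with LPS. Mcm5, a subunit of that helicase whose promoter is printed above, fell, with a log2 change of -2.52 ± 0.07. The cyclins Ccne2 and Ccna2 fell, with log2 changes of -4.04 ± 0.17 and -3.47 ± 0.05. Cdk1, the kinase of mitosis named after its values were seen, kept the highest level of the 7 genes named here with LPS at 113, 102 and 97.1 TPM. Of 20 tested replication histone genes none rose (0 to 1) and 5 fell (4 to 5), against 27.1% of all genes that fell.

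The regulators of the cell cycle entry changed in both directions, with 4 of 20 higher in each scaling and 12 lower (9 to 12). Mxd1, which competes with Myc for its partner Max, was at 2.03, 1.91 and 2.07 TPM without LPS and 117, 114 and 107 TPM with LPS, and Myc itself at 10.2, 9.75 and 9.66 TPM without LPS and 66.7, 79.7 and 65.8 TPM with LPS. The cell cycle inhibitor Cdkn1a (p21) rose by 1.44 ± 0.08 and the cyclin Ccnd2 by 2.43 ± 0.10. The inhibitor Cdkn2c was at 30.2, 29.8 and 30.9 TPM without LPS and 1.93, 1.57 and 1.72 TPM with LPS, and the E2F factors E2f8 and E2f1 fell, with log2 changes of -3.33 ± 0.08 and -2.91 ± 0.06. DNA repair fell with replication, 19 of 21 genes (17 to 19). Ung, which removes uracil from DNA, was at 21.5, 19.7 and 17.7 TPM without LPS and 0.623, 0.448 and 0.331 TPM with LPS. The mismatch repair gene Msh6 fell, with a log2 change of -3.16 ± 0.09, and Parp1, a sensor of DNA breaks, with -2.11 ± 0.07. Brca2, chosen after its values were seen, was an exception at 8.29, 9.17 and 10.3 TPM without LPS and 14.1, 14.3 and 14.2 TPM with LPS, a change of 0.57 ± 0.08, and Atm, a kinase activated by DNA breaks, changed with -0.84, below the 2-fold limit (also chosen after its value was seen). Of 23 chromatin regulators 3 rose in each scaling and 8 fell (7 to 8), against 8.66% and 27.1% of all genes. The partners Uhrf1 and Dnmt1, which copy DNA methylation, were at 119.6, 123 and 121 TPM without LPS and 9.03, 10.6 and 8.99 TPM with LPS and 79.7, 87.01 and 82.1 TPM without LPS and 11.9, 13.9 and 11.8 TPM with LPS. Hdac5, a histone deacetylase, fell, with a log2 change of -3.81 ± 0.14, and the histone demethylase Kdm6b and the DNA demethylase Tet2 rose by 2.14 ± 0.12 and 1.95 ± 0.10.

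Cell death and survival genes were higher in 15 of 32 (15 to 17) and lower in 4 (3 to 4). Fas, a death receptor, was at 5.21, 3.66 and 4.67 TPM without LPS and 258, 224 and 244 TPM with LPS. The caspase Casp4, which senses LPS inside the cell, rose by 3.70 ± 0.07, and the stress gene Gadd45b by 4.22 ± 0.06. Bmf and Gsdme, a death-promoting BCL2 relative and a pore protein, fell, with log2 changes of -2.18 ± 0.19 and -1.90 ± 0.11, and so did Bcl2, with -1.34 ± 0.13. Clock genes fell in 5 of 13 (4 to 5) and rose in 2 (2 to 3). Dbp, an output gene of the clock, was at 14.98, 16.5 and 14.4 TPM without LPS and 0.831, 1.27 and 1.49 TPM with LPS, and its relative Tef fell, with a log2 change of -1.76 ± 0.11. Of the repressors in the list, Nr1d1 (REV-ERB alpha) was at 4.35, 4.48 and 4.11 TPM without LPS and 26.4, 30.5 and 27.1 TPM with LPS and rose, as did Nfil3, with 1.66 ± 0.07, while Nr1d2 (REV-ERB beta) fell, with a log2 change of -1.34 ± 0.12. In the Notch pathway 3 of 11 rose in each scaling and 2 fell (2 to 3), against 8.66% and 27.1% of all genes. Notch2 was at 15.4, 17.8 and 18.4 TPM without LPS and 51.2, 55.4 and 46.4 TPM with LPS, and Lfng, which modifies Notch receptors, fell, with a log2 change of -2.08 ± 0.12. Notch1 was at 0.543, 0.214 and 3.74 TPM without LPS and 7.24, 8.08 and 6.81 TPM with LPS, and its replicates without LPS differ widely.

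Ribosomal protein genes stayed within the 2-fold limit, as 0 of 79 rose or fell in any scaling. Their median change of -0.28 lay above that of all genes and became 0.30 with the scaling that moved it most. As a share of TPM they went from 10.1% to 10.5% to 8.38% to 8.65%. The mitochondrially encoded transcripts fell in 7 of 13 (0 to 7), and the fall of mt-Cytb from 5714 ± 454 to 2423 ± 245 TPM (SD, n = 3 each) is an example. Of 262 tested zinc finger genes with Zfp names 4 rose (4 to 8) and 55 fell (13 to 66), with a median of -0.61. On the deposited scale both shares lay below the 8.66% and 27.1% of all genes. Of 13 small nucleolar RNA host genes 4 fell (1 to 4), near the 27.1% of all genes.

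Among 15 tested noncoding and microRNA host genes 5 rose in each scaling and 2 fell (0 to 2). Mir155hg, the host of miR-155, a regulator of inflammatory signalling, was at 0.553, 0.381 and 0.515 TPM without LPS and 52.99, 27.5 and 33.4 TPM with LPS. The genes of the related miR-146 family, which target adaptors of the Toll-like receptor pathway, are listed at 0 in every library without LPS, and Mir146b was at 2.73, 5.55 and 5.46 TPM and Mir146 at 10.6, 20.5 and 21.6 TPM with it. The mature forms of these microRNAs were not measured, and the values are those of the precursor or host genes. Their mature sequences (RefSeq, GRCm38.p6) are shown with the seed, bases 2 to 8, in capitals, since it sets which mRNAs they pair with. The miR-146 forms share a seed that differs from that of miR-155.
mmu-miR-155-5p: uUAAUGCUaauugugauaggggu
mmu-miR-146a-5p: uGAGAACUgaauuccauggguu
mmu-miR-146b-5p: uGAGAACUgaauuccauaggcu
Mir22hg, the host of miR-22, rose by 2.09 ± 0.07, and Mir17hg, the host of the growth-promoting miR-17 cluster, fell, with a log2 change of -1.29 ± 0.15. Outside the list, the largest fall among genes with a sufficient level was in Ttc39aos1, an antisense RNA of Ttc39a whose reads can be told from those of its partner only by strand, at 49.9, 54.1 and 57.5 TPM without LPS and 0.141, 0.856 and 0.124 TPM with LPS. The next were Angpt2, Gpr183 and C130050O18Rik (-4.55 ± 0.10), followed by Rasgrp3, an activator of Ras at 88.2, 84.9 and 91.2 TPM without LPS and 2.94, 2.78 and 2.91 TPM with LPS. Arhgef39, a guanine nucleotide exchange factor, and Ndrg4 fell, with log2 changes of -4.31 ± 0.08 and -4.10 ± 0.07.

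**Figure D5:**
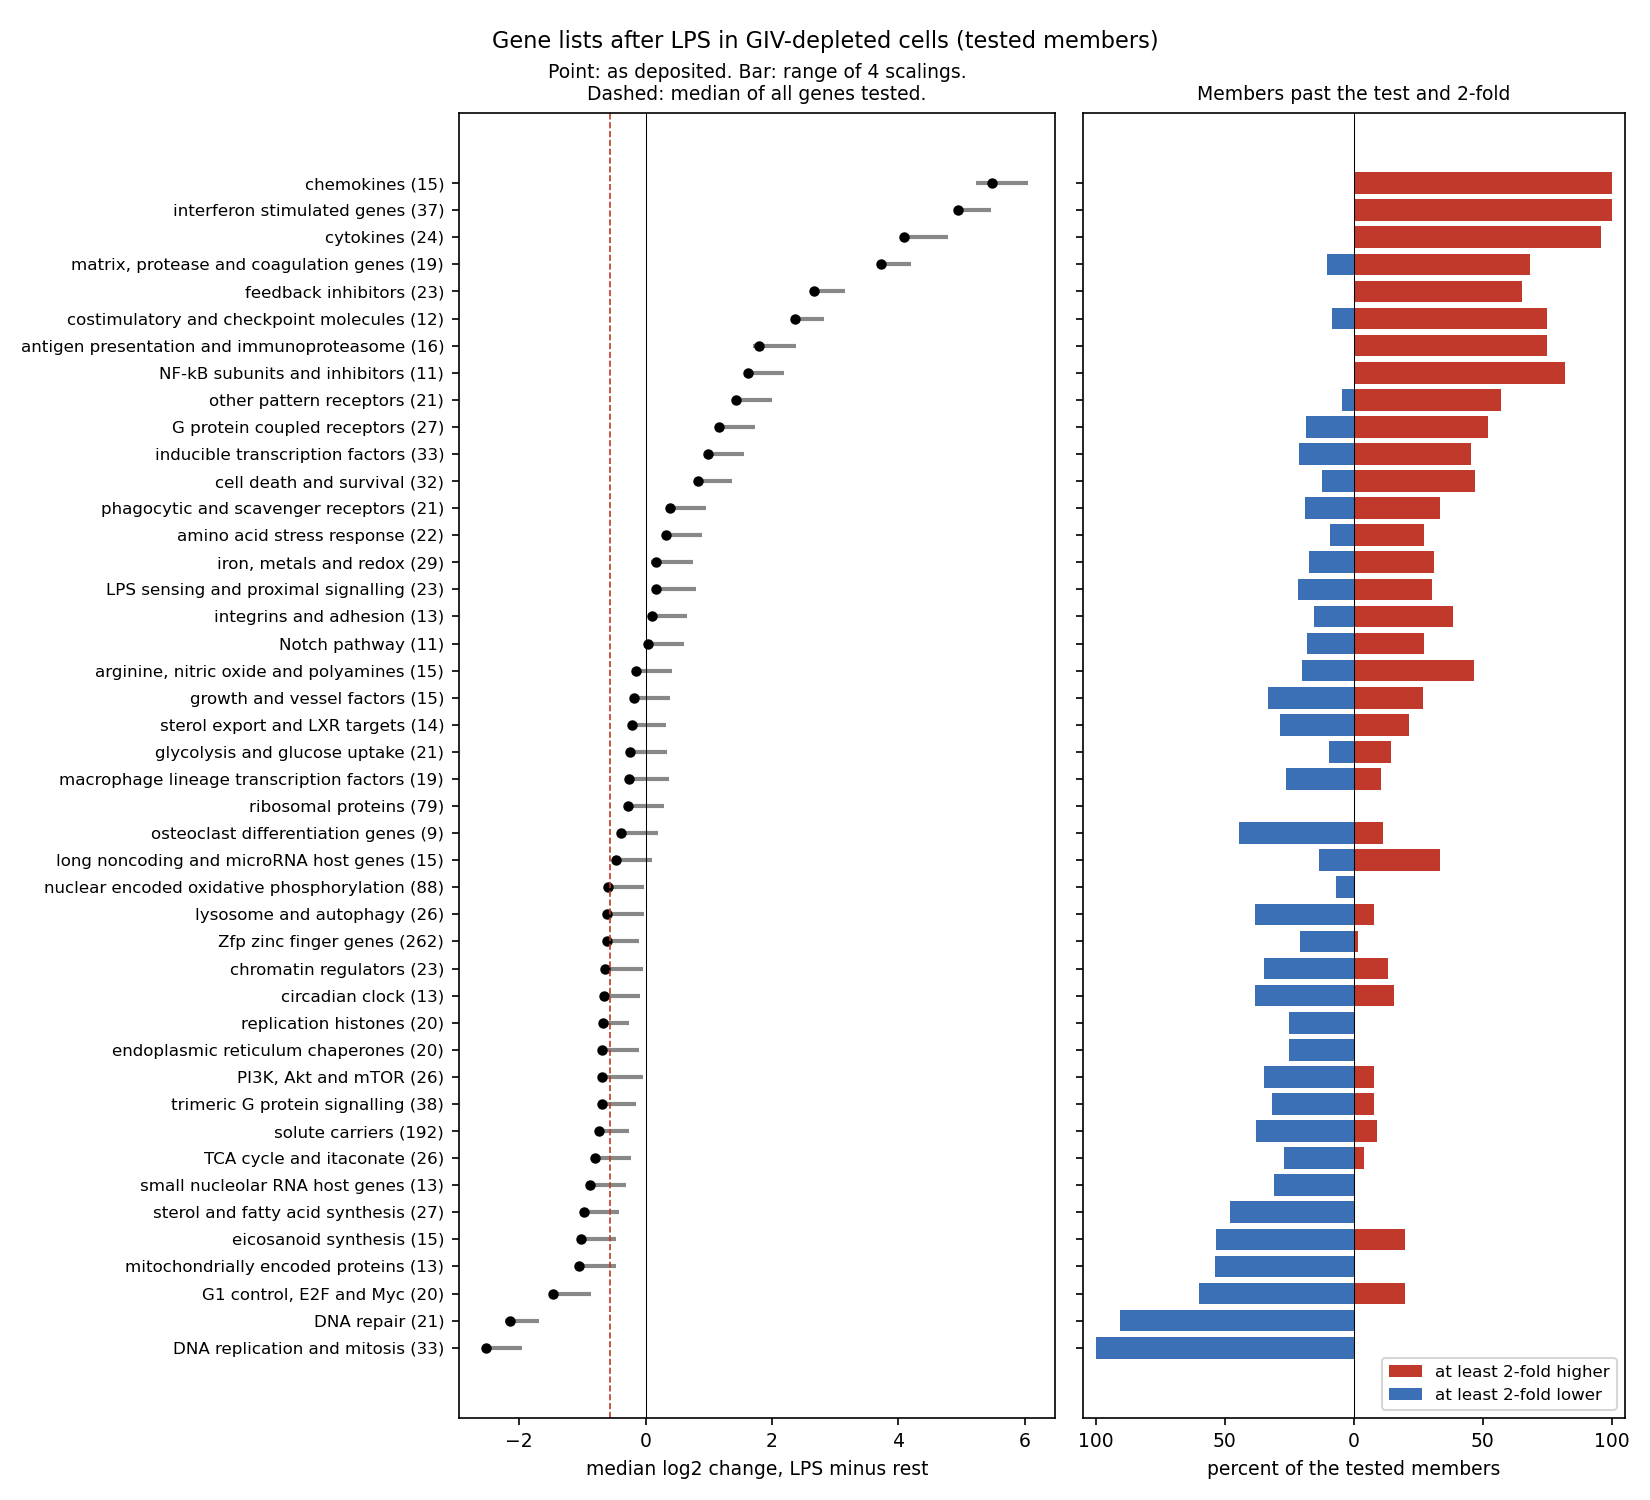
For each gene list plotted (tested members in brackets), the left panel shows the median log2 change with LPS on the deposited scale (point) and its range over 4 scalings (bar), with the median of all tested genes, -0.56, as a dashed line; the right panel shows the percent of members at least 2-fold higher (red) or lower (blue). Chemokines, at 5.47, lie at the top and DNA replication and mitosis, at -2.52, at the bottom.

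Whether the response differs from that of control cells was tested in a 4-group model as the difference of the 2 LPS effects. Control replicate 2 without LPS was left out for its composition, and the spread of the lone control library with LPS was taken to be that of the rest. Limma called 31 of 13711 genes (0.226%), 13 with the higher response in depleted cells (0.0948%) and 18 with the lower (0.131%). No gene was called with all 10 libraries (226 at an unadjusted p under 0.05) or with the set number as a block (1820 at an unadjusted p under 0.05), and leaving out a further library left 0 to 21, with 0 when replicate 1 or 2 of the depleted cells with LPS was left out. Ccl7, a monocyte chemokine, was at 26.99, 26.7 and 25.4 TPM in the depleted libraries with LPS and at 128 TPM in the control one, and at or near 0 in every library without LPS. Its change was 4.74 in depleted and 7.01 in control cells, a difference of -2.27 ± 0.14 (SE, limma adjusted p = 0.00525). In the opposite direction Tnfsf15, a TNF family ligand, was at 18.9, 15.4 and 15.9 TPM in the depleted libraries and 1.95 TPM in the control one, a difference of 2.48 ± 0.23 (SE, limma adjusted p = 0.0198). Rnd1, whose rise is described above, was at 35.2 TPM in the control library with LPS (difference 1.69 ± 0.19, SE, limma adjusted p = 0.0307). The low number of calls does not show that the other responses are alike.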

How the data were processed

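Total RNA of 11 samples was sequenced from stranded libraries with paired reads, per the labels' protocols. The authors deposited log2 values, log2(TPM + 1) per gene, made with kallisto 0.45.0 on GRCm38, per the submitters' processing notes. The annotation release and the step from transcripts to genes are not given in the sources used here. TPM keeps no read total, so the depth and counting precision of each library are unknown. All 10 columns were mapped to samples by their titles, and none of the 45 library pairs held identical values.

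The main comparison used only the 6 depleted libraries, with limma 3.58.1 in R 4.3.3 (moderated variances with a mean-variance trend, Benjamini-Hochberg adjustment over 13257 genes, threshold 0.05, pseudocount 1). A call needs a log2 change of at least 1 in size as well. The difference between the lines used 9 libraries in a 4-group model. A gene was tested where log2(TPM + 1) reached 1 in 2 or more libraries. The members and the 45 pathway and 9 marker lists were chosen with earlier results of these data known, and no set test was run. Named genes are Ccdc88a, the macrophage markers, the 12 largest rises and falls with a group mean of at least 3, no overlap and a unique symbol, the 10 largest gains and losses of TPM, per list the 5 largest called changes each way and the most abundant member (2 where none was called), and of the difference the 5 largest each way. Some genes and 1 list that the rule names are not reported here. The motifs and the promoters shown were chosen after the data were seen.

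The alternatives tried were quantile normalization, a pseudocount of 0.1, TMM factors taken from the TPM values (30% trimmed by ratio, 5% by level), a rescaling that drops mitochondrial genes and the 100 most abundant ones, a block for the set number, a filter at log2 of 3 or none, no trend, models of 9 or 10 libraries, and leaving out each library. On simulated data for this comparison, with 200 of 13257 genes changed, 75.0% of log2 changes of 1 and 90.4% of log2 changes of 2 were recovered and 2.35% of calls were wrong. A recovered gene there had an adjusted p under 0.05 and the right sign, without the fold limit. The simulated data had far fewer changed genes and no shift of the median like the -0.56 seen here. These rates therefore do not describe the 1148 and 3588 calls. Positions and biotypes came from GENCODE M21, which holds 51336 of the 52143 identifiers (13064 of those tested), and sequences from RefSeq tables on GRCm38.p6. Tables were made with pandas 2.3.3, numpy 2.4.6 and scipy 1.17.1 in Python 3.11.15, and plots with matplotlib 3.10.9.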

Additional observations from a re-analysis of the deposited data

Results flagged for a closer look

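The 10 genes named by the rule were called by the test of the difference between the lines' LPS responses (limma, 9 libraries). The control arm with LPS is 1 library, and no call held with all 10 libraries, so a difference between the lines is not established. Higher responses in depleted cells were called for Gm23992, annotated as a microRNA gene (difference 6.29 ± 0.85 SE, adjusted p = 0.0492), Tnfsf15 (2.48 ± 0.23, 0.0198), Il33 (2.25 ± 0.25, 0.0281), Bcl2a1a, a survival gene of the BCL2 family (1.94 ± 0.16, 0.0112) and Rnd1 (1.69 ± 0.19, 0.0307). Lower responses were called for Ccl7 (-2.27 ± 0.14, 0.00525), the predicted gene Gm20056 (-1.93 ± 0.23, 0.0352), Tm4sf19, a membrane protein of osteoclasts (-1.71 ± 0.14, 0.0112), the clock-linked repressor Bhlhe41 (-1.46 ± 0.15, 0.0269) and Lhfpl2 (-1.40 ± 0.15, 0.0281).

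Il33 and Bcl2a1a are listed at 0 in all libraries without LPS that entered this test. With LPS Il33 was at 2.70 TPM in the control and at 13.6 to 18.8 TPM in the depleted libraries, and Bcl2a1a at 6.51 TPM and 26.1 to 29.0 TPM. Bcl2a1a has near-identical copies that can share reads. Gm23992 was at 13.1 and 26.2 TPM in the 2 control libraries without LPS used here and is listed at 0 in the control library with LPS, while the depleted libraries were at 2.32, 0 and 0 TPM without and 4.62 to 5.18 TPM with LPS. Tm4sf19 went from 34.1 and 37.7 TPM to 61.9 TPM in control cells, while in depleted cells it went from 33.3 to 34.0 TPM to 15.2 to 18.3 TPM. With all 10 libraries each of the 10 had an adjusted p of 0.556 or 0.715, with the same sign. Each also missed the threshold with the set number as a block.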

How the results depend on the processing

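The 2-fold counts for LPS of 1148 higher and 3588 lower genes moved by over 1.5 times with TMM scaling (1766 and 1740), and the lower count with quantile normalization (1800). In 1 model with all 10 libraries, which shares its spread with the control library that stands apart, 742 rose, 1373 fell and 2236 passed the test against 10372, and 2113 of the 2115 genes called 2-fold were called from the 6 libraries too. Leaving out each library gave 1127 to 1179 higher, 3486 to 3690 lower and 9946 to 10234 past the test. Over the pathway lists 291 members rose and 354 fell, with 200 lower under TMM, 229 under quantile normalization and 158 with 10 libraries. The mitochondrial share fell by 3.05 percentage points, and leaving out each library left this within the spread of the replicates. Of the 373 genes that the rule names or the text adds, 13 changed sign over the 4 scalings and 0 of these were called 2-fold. Of those recomputed under every alternative, Rela turned to 0.50 with TMM, 0.40 with quantile normalization and 0.044 with rescaling, Gnb2 to 0.46 and Ctsb to 0.20 with TMM, and Spi1 to -0.14 with quantile normalization. The cause was not tested.

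The 31 genes whose response differs between the lines became 360 without a filter, 73 with the stricter one, 87 with TMM, 64 with rescaling, 0 with 10 libraries (226 at an unadjusted p under 0.05) and 0 to 21 when each library was left out. The set number as a replicate block left none of these calls, and gave 10434 genes past the test for LPS. Same-numbered libraries correlated at 0.0697, 0.0790 and 0.107 in their deviations from the group means, not all above 0.1, so the numbers were not taken as pairs, though every library correlated best with its own number. Depth is unknown, so small changes of low genes cannot be weighed against counting error.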

Other observations

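Several genes outside the lists showed switch-like rises that were noticed after the data were seen. Ighv14-1, an immunoglobulin heavy chain variable segment, is listed at 0 in all libraries without LPS and was at 16.3, 10.0 and 14.2 TPM with it, while all 5 B cell markers stayed below the level for testing (sums of 0.182 to 0.352 TPM without and 0.726 to 0.955 TPM with LPS). Hdc, the enzyme that makes histamine, was at 0.138, 0.224 and 0.414 TPM without and 187, 201 and 187 TPM with LPS. Urah, which degrades a product of urate, is listed at 0 without LPS and was at 30.8, 37.9 and 32.3 TPM with it. Marcks, the relative of Marcksl1, was at 0.0218, 0.0206 and 0.0216 TPM without and 32.1, 18.6 and 23.4 TPM with LPS. Upp1, which splits uridine, was at 0.431, 0.113 and 0.673 TPM and then at 77.5, 70.02 and 82.6 TPM.

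Of the genes under 1 TPM in every library with LPS and at least 10 TPM in every library without, Wee1, an inhibitor of mitotic entry, was at 12.3, 11.4 and 11.1 TPM without and 0.864, 0.591 and 0.397 TPM with LPS. E2f2 was at 10.5, 11.2 and 10.2 TPM and then at 0.306, 0.319 and 0.306 TPM. By annotated type, protein-coding genes had 886 of 10788 higher and 3239 lower (median change -0.62), antisense genes 46 of 326 higher and 56 lower (-0.33), long intergenic RNA genes 50 of 356 higher and 66 lower (-0.29), and genes annotated as microRNAs 40 of 350 higher and 19 lower (0.11). The most abundant of the last class, Mir6236, was at 44347 to 64730 TPM without and 48513 to 72694 TPM with LPS, and its groups overlapped.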
